A study of Homo sapiens with 27 samples.

Results

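HCT116 and DLD-1 are established human colorectal cancer (CRC) cell lines, and the comparison here is between their untreated cells (WT), before exposure to any drug. Its members were chosen by the titles of the deposited samples, 3 HCT116 WT libraries and 3 DLD-1 WT libraries, 6 of 27 in the series. The whole series holds HCT116, SW480 and DLD-1 cells, each as WT cells and as cells made resistant to 5-fluorouracil (5-FU) or oxaliplatin (OX). The labels give both WT groups the genotype negative control, the same low-glucose medium with serum and the same RNA and library kits, and no transgene, deletion or drug. Each group is a single long-cultured line, so a difference between the groups is one between these lines as grown here and not between classes of tumours. Nothing in the sources says whether the 3 libraries of a line came from separate cultures, and the p-values then speak of variation among these libraries alone, part or all of which may be technical. The HCT116 and SW480 libraries carry names from a shared run of numbers and the DLD-1 libraries from a later run, so that cell line and library run cannot be told apart.

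Colon epithelium renews itself from crypt stem cells under WNT signalling, which stabilises β-catenin and switches on TCF/LEF target genes, many of which are themselves feedback inhibitors of the pathway. Cells leaving the crypt come under intestinal transcription factors such as CDX2 and HNF4A and become absorptive enterocytes or secretory cells. CRC lines keep parts of these programmes to differing degrees. HCT116 is known as a line with a stabilised β-catenin, whereas DLD-1 is known as a line with truncated APC and loss of the DNA mismatch repair gene MSH6.

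The libraries of a line were much closer to each other than to those of the other line. Expression was taken as TPM, the deposited FPKM divided by their library sum (scaled to 1000000), and compared as log2(TPM + 1). The correlation of that value across 13706 genes was 0.995 for each pair of HCT116 WT libraries and ran from 0.992 to 0.994 among DLD-1 WT libraries, and lay at 0.781 to 0.795 between the lines (across genes, which are not replicates). Low FPKM values fell on steps of single reads, and the step sizes placed the depth of the libraries at 1 to 1.11 times that of the first HCT116 WT library for HCT116 WT and 0.950 to 1.10 times for DLD-1 WT. Steps were sought only near equal size, so a large difference in depth could not be seen this way. If the FPKM hold a scaling between libraries, the steps hold it too. The number of reads is not given in the sources used here. Both lines were epithelial by their markers: KRT19, a keratin of simple epithelia, averaged 1194 TPM in HCT116 WT and 529 TPM in DLD-1 WT, and EPCAM, an epithelial adhesion molecule, 392 TPM in HCT116 WT and 785 TPM in DLD-1 WT. Of the fibroblast, leukocyte, endothelial and neuroendocrine markers, 1, 2, 1 and 1 passed the filter on low values. The leukocyte markers summed to 3.24 to 4.09 TPM in HCT116 WT and 3.49 to 4.84 TPM in DLD-1 WT, and PTPRC, the pan-leukocyte antigen, was listed at 0 in all HCT116 WT libraries and at 0.11, 0.0358 and 0.0322 TPM in DLD-1 WT.

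Most expressed genes differed between the lines. limma, a linear model that shares the estimate of the spread across genes, was fitted to 13706 genes that reached 1 TPM in 3 or more of 6 libraries. At a Benjamini-Hochberg adjusted p under 0.05, 3800 genes (27.7%) were higher and 8130 (59.3%) lower in HCT116 WT. With a log2 fold change beyond 1 as well, 1504 (11.0%) were higher and 3891 (28.4%) lower, and beyond 2, 628 and 1056. The direction of the average gene depended on the scaling. Over all genes the log2 fold change had a median of -0.40 by TPM and 0.02 after median-of-ratios scaling, which centres the typical gene. Under that scaling 5979 genes (43.8%) were higher and 5820 (42.6%) lower by the test, and 2402 (17.6%) and 2324 (17.0%) also passed the fold limit, so that 50.8% of called genes were higher in place of 27.9%. The summed FPKM, by which TPM divides, were 701434 to 720744 in HCT116 WT and 499557 to 515400 in DLD-1 WT, and the 100 most abundant genes held 37.6% to 38.2% and 33.0% to 34.5% of all TPM. Each log2 fold change below is HCT116 WT over DLD-1 WT on log2(TPM + 1) unless median-of-ratios is named, and is to be read against the median of -0.40. A gene could pass the filter through 1 line alone, so the counts of list members below are descriptions, to be read against the shares over all genes.

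**Figure D1:**
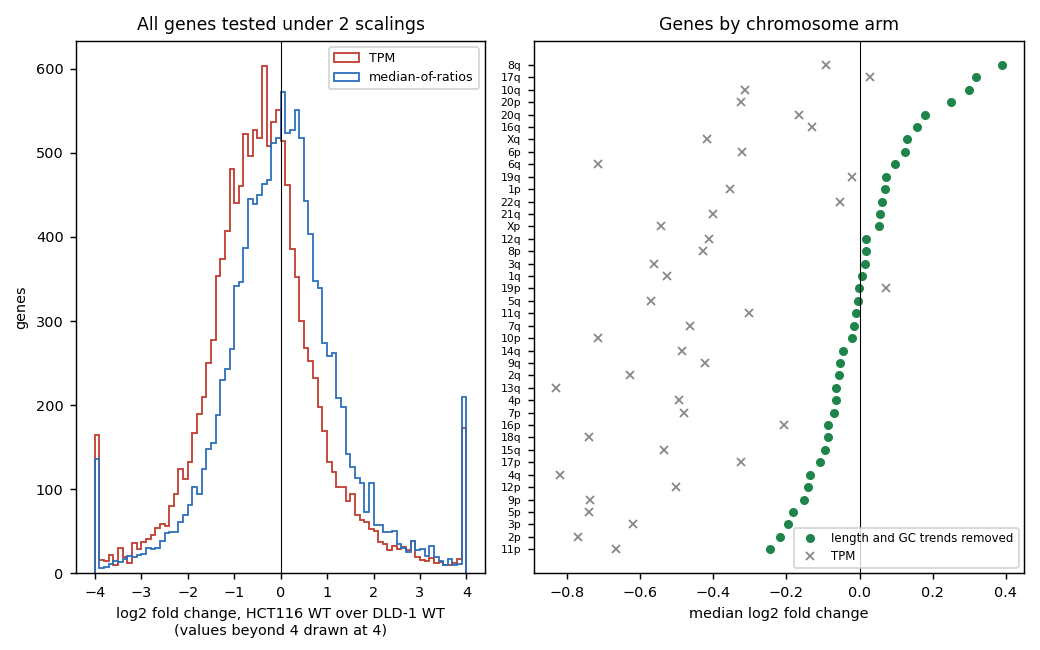
Left, the number of genes in each bin of log2 fold change, HCT116 WT over DLD-1 WT, under TPM and median-of-ratios scaling; the TPM curve is centred at -0.40 and the other at 0.02. Right, the median log2 fold change of genes on each chromosome arm, by TPM (crosses) and with transcript length and GC trends removed (circles), from 0.39 on 8q down to -0.25 on 11p.

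The genes with the largest differences were close to off in the other line. DKK1, a secreted WNT inhibitor that blocks the LRP co-receptors, had 635, 663 and 673 TPM in the HCT116 WT libraries, against 0.612, 0 and 0.188 TPM in DLD-1 WT (log2 fold change 9.05, SE 0.14, limma adjusted p = 4.8e-11). GTSF1, a protein of the piRNA pathway of germ cells, had 461, 469 and 459 TPM in HCT116 WT, against 0.221, 0.264 and 0 TPM in DLD-1 WT. CRIP1, a small LIM-domain protein known from the intestine, had 591, 564 and 522 TPM in HCT116 WT and 1.36, 0.545 and 1.48 TPM in DLD-1 WT. These genes were chosen with ranges that do not overlap, so that every HCT116 WT library lies above every DLD-1 WT library by choice. S100A4, a calcium-binding protein linked to cell motility, differed at a higher level, with 2718, 2875 and 2585 TPM in HCT116 WT and 15.2, 16.2 and 16.9 TPM in DLD-1 WT (log2 fold change 7.32, SE 0.05, adjusted p = 1.9e-12). DBN1, the actin-binding protein drebrin, averaged 153 ± 8.66 TPM in HCT116 WT and 0.616 ± 0.372 TPM in DLD-1 WT (SD, n = 3 each), and DMKN, a secreted epidermal protein, 172 ± 1.37 TPM in HCT116 WT and 0.0628 ± 0.109 TPM in DLD-1 WT. The kallikrein protease KLK8 had 120.1, 108 and 107 TPM in HCT116 WT and was listed at 0 in all DLD-1 WT libraries. HBE1, the embryonic β-like globin, averaged 162 ± 3.52 TPM in HCT116 WT and 0.246 ± 0.238 TPM in DLD-1 WT. The X-linked FAM127B averaged 153 TPM in HCT116 WT and 0.0943 TPM in DLD-1 WT, though it has near-identical copies between which reads could be split.

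The genes with the largest differences in the other direction were near or at 0 in HCT116 WT. TSPAN8, a tetraspanin of digestive epithelia (chromosome 12, hg19 positions 71518865 to 71835678, minus strand), had 0.699, 0.334 and 0.323 TPM in HCT116 WT, against 682, 701 and 664 TPM in DLD-1 WT (log2 fold change -8.89, SE 0.09, adjusted p = 7.4e-12). AGR2, a protein disulfide isomerase needed for mucin folding, had 0.274, 0.263 and 0.254 TPM in HCT116 WT and 504, 489 and 507 TPM in DLD-1 WT (log2 fold change -8.63, SE 0.05, adjusted p = 6.4e-13). SELENBP1, a methanethiol oxidase abundant in mature colonocytes, had 0.321, 0 and 0.058 TPM in HCT116 WT and 422, 455 and 446 TPM in DLD-1 WT. These genes were chosen among those with ranges that do not overlap. The annotated 5′ end of TSPAN8 runs into LGR5 on the other strand, so that reads there could be shared if strand was not used in counting. CFTR, the chloride channel of crypt cells, averaged 0.0354 ± 0.035 TPM in HCT116 WT and 229 ± 6.37 TPM in DLD-1 WT. The pore-forming claudin CLDN2 averaged 0.527 ± 0.0774 TPM in HCT116 WT and 194 ± 9.92 TPM in DLD-1 WT. IL33, a nuclear alarmin cytokine, averaged 0.0469 ± 0.0501 TPM in HCT116 WT and 157 ± 6 TPM in DLD-1 WT, and CXCL5, a chemokine for neutrophils, 0.0611 ± 0.0682 TPM in HCT116 WT and 96.6 ± 1.93 TPM in DLD-1 WT. S100P, a calcium-binding protein often high in gastrointestinal cancers, averaged 0.409 ± 0.162 TPM in HCT116 WT and 311 ± 15.4 TPM in DLD-1 WT.

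**Figure D2:**
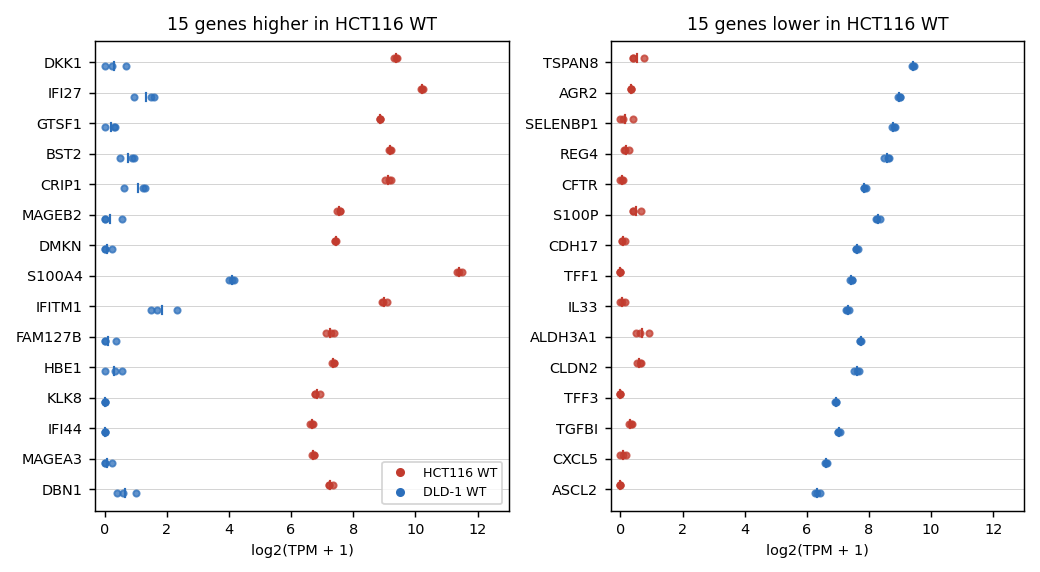
log2(TPM + 1) in each of the 3 HCT116 WT (red) and 3 DLD-1 WT (blue) libraries for the 15 genes with the largest log2 fold change in each direction; points are libraries and short bars their means. The genes were chosen among those with ranges that do not overlap, and run from 9.05 for DKK1 to -8.89 for TSPAN8.

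WNT feedback genes and crypt stem cell genes were lower in HCT116 WT, with DKK1 and NOTUM the exceptions. Of 22 genes of this list that passed the filter, 2 were higher and 19 lower past the test, all 19 lower genes beyond a log2 fold change of 1, with a median of -2.31 (-2.23 without the gene listed at 0 in a whole line) against -0.40 over all genes. Under median-of-ratios 3 were higher and 19 lower. LGR5, the R-spondin receptor that marks crypt stem cells, had 0.0544, 0.026 and 0 TPM in HCT116 WT, against 73.4, 80.4 and 74.3 TPM in DLD-1 WT (log2 fold change -6.23, SE 0.07, adjusted p = 1.1e-11). ASCL2, a transcription factor of the same stem cells, was listed at 0 in all HCT116 WT libraries and had 79, 84.4 and 75.1 TPM in DLD-1 WT. AXIN2, a scaffold of the β-catenin destruction complex and a standard WNT target, had 7.19, 6.98 and 7.16 TPM in HCT116 WT and 215, 223 and 209.6 TPM in DLD-1 WT (log2 fold change -4.74, SE 0.04, adjusted p = 5.1e-12). These genes were picked by name or for a large change. They were well expressed in every DLD-1 WT library and low or listed at 0 in every HCT116 WT library. CEMIP, a hyaluronan-binding protein, averaged 2.51 ± 0.0193 TPM in HCT116 WT and 135 ± 5.57 TPM in DLD-1 WT. LEF1, a DNA-binding partner of β-catenin, averaged 0.0255 ± 0.0227 TPM in HCT116 WT and 34.7 ± 1.36 TPM in DLD-1 WT.

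APC, the scaffold that marks β-catenin for destruction, had 3.92, 3.58 and 3.92 TPM in HCT116 WT and 16.3, 18.3 and 16.9 TPM in DLD-1 WT (log2 fold change -1.91, -1.52 by median-of-ratios). The APC difference shrank to -0.75 with the trend with transcript length removed, and to -0.43 with length and GC trends removed. CTNNB1, which encodes β-catenin, had 157, 152 and 162 TPM in HCT116 WT and 224, 235 and 226 TPM in DLD-1 WT, a log2 fold change of -0.54 by TPM that was -0.09 by median-of-ratios and turned to 0.15 once the trend with transcript length was removed, so no direction is given for it. Among WNT ligands, receptors and inhibitors, 10 of 29 were higher and 17 lower (12 and 15 by median-of-ratios, where 28 were tested). Over all genes 27.7% were higher and 59.3% lower by TPM. WNT5B, a ligand of β-catenin-independent signalling, averaged 0.196 ± 0.0793 TPM in HCT116 WT and 6.96 ± 0.367 TPM in DLD-1 WT. MYC, a growth-promoting transcription factor and known WNT target, went the other way, with 316, 300.3 and 312 TPM in HCT116 WT and 209, 217 and 216 TPM in DLD-1 WT (log2 fold change 0.53, 0.98 by median-of-ratios).

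Intestinal identity genes were lower in HCT116 WT as a group. Of 42 transcription factors and enterocyte genes listed, 19 passed the filter, and of these 2 were higher and 17 lower, the same counts as by median-of-ratios, with a median of -2.82 (-2.77 without the gene listed at 0 in a whole line). CDX2, a master regulator of intestinal fate, had 15.7, 14.4 and 15.3 TPM in HCT116 WT, against 198, 193 and 189 TPM in DLD-1 WT (log2 fold change -3.59, SE 0.05, adjusted p = 1.7e-11). HNF4A, a nuclear receptor of enterocytes, had 0.0259, 0.173 and 0.096 TPM in HCT116 WT and 21.7, 23 and 22.8 TPM in DLD-1 WT (log2 fold change -4.42, SE 0.08, adjusted p = 1.3e-10). HNF4A was thus near 0 in HCT116 WT, while CDX2 was present there at a lower level than in any DLD-1 WT library. CDH17, the liver-intestine cadherin, averaged 0.052 ± 0.038 TPM in HCT116 WT and 193 ± 4.95 TPM in DLD-1 WT. KRT20, a keratin of differentiated colonocytes, was low in both lines, at 3.3, 2.43 and 3.94 TPM in HCT116 WT and 10.6, 9.91 and 8.84 TPM in DLD-1 WT. CDX1 and VIL1 (villin of the brush border) stayed below the filter in both lines, with VIL1 listed at 0 in HCT116 WT and at 0.167, 0.2 and 0.12 TPM in DLD-1 WT.

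FOXA1, a pioneer factor of endoderm, averaged 1.63 ± 0.227 TPM in HCT116 WT and 203 ± 6.63 TPM in DLD-1 WT (log2 fold change -6.28). GATA6, an endodermal zinc finger factor, averaged 2.87 ± 0.0739 TPM in HCT116 WT and 45.5 ± 1.21 TPM in DLD-1 WT, and FOXQ1, a forkhead factor raised in CRC, 2.21 ± 0.163 TPM in HCT116 WT and 62.4 ± 1.83 TPM in DLD-1 WT. Of 35 SOX, FOX, GATA and KLF factors, 7 were higher and 20 lower (12 and 17 of 34 by median-of-ratios), against 27.7% higher and 59.3% lower over all genes by TPM. HOX genes, which keep a cell's position along the body axis, and the noncoding RNAs of their clusters were mostly lower, with 4 higher and 26 lower of 33 (9 and 23 of 34 by median-of-ratios). HOXA13, the most posterior gene of its cluster and a hindgut factor, had 0.96, 1.15 and 0.888 TPM in HCT116 WT and 65.9, 72.3 and 69.7 TPM in DLD-1 WT (log2 fold change -5.14, SE 0.07, adjusted p = 2.8e-11). HOTTIP, a noncoding RNA that overlaps HOXA13 on the other strand, averaged 0.105 ± 0.077 TPM in HCT116 WT and 49.8 ± 1.76 TPM in DLD-1 WT. HOXB3 averaged 9.72 ± 0.582 TPM in HCT116 WT and 131 ± 4.04 TPM in DLD-1 WT.

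Secretory lineage genes divided, where 27.7% of all genes were higher and 59.3% lower by TPM. Of 23 tested, 8 were higher and 15 lower in HCT116 WT (8 and 14 by median-of-ratios), with a median of -2.19 (-2.05 without the 2 genes listed at 0 in a whole line). REG4, a secreted lectin of enteroendocrine and goblet cells, had 0.207, 0.106 and 0.0883 TPM in HCT116 WT and 386, 358 and 399 TPM in DLD-1 WT (log2 fold change -8.40, SE 0.07, adjusted p = 1.9e-12). The trefoil peptides TFF1 and TFF3, which protect the mucosa, were listed at 0 in all HCT116 WT libraries, while in DLD-1 WT TFF1 had 167, 173 and 174 TPM and TFF3 123, 119 and 123 TPM. CEACAM5, the carcinoembryonic antigen, averaged 0.0112 ± 0.0195 TPM in HCT116 WT and 56.8 ± 4.18 TPM in DLD-1 WT. Its relative CEACAM6 was listed at 0 in all HCT116 WT libraries and had 40.7, 38 and 37.8 TPM in DLD-1 WT, whereas CEACAM1 averaged 9.55 ± 0.432 TPM in HCT116 WT and 3.19 ± 0.278 TPM in DLD-1 WT. These CEACAM genes are alike in sequence, and how their shared reads were assigned is not given.

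**Figure D3:**
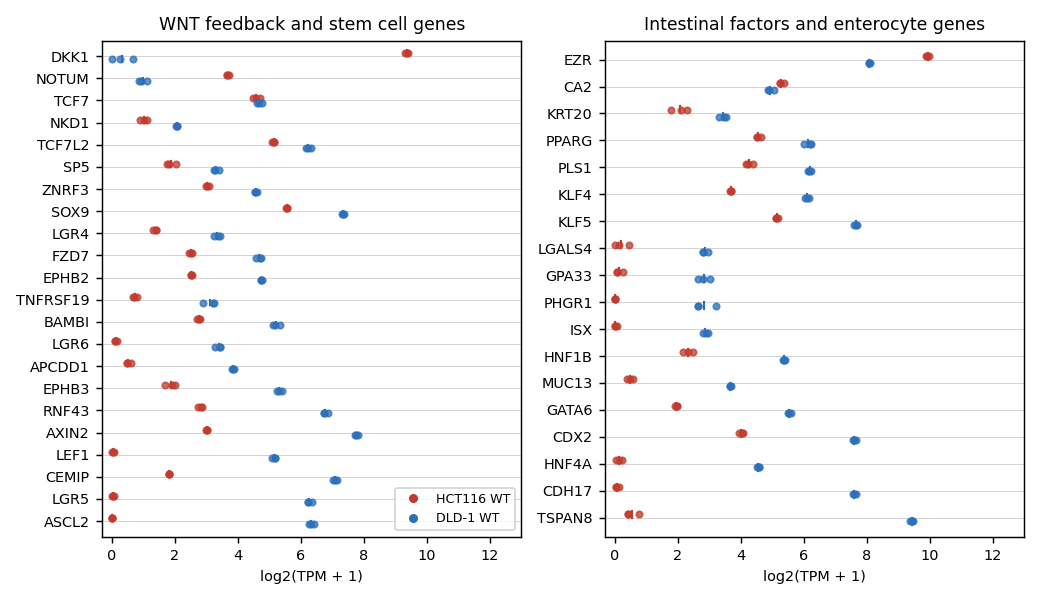
log2(TPM + 1) of each HCT116 WT (red) and DLD-1 WT (blue) library for the members of 2 lists reported here, ordered by log2 fold change; points are libraries and short bars means. Most genes lie lower in HCT116 WT, with DKK1 (9.05) at the top of its list and TSPAN8 (-8.89) at the foot of the other.

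Epithelial junction genes were more often lower than higher in HCT116 WT, but many by little. All genes together were 27.7% higher and 59.3% lower by TPM, and 43.8% and 42.6% by median-of-ratios. Beyond a log2 fold change of 1 the TPM shares were 11.0% and 28.4%. Of 41 tested, 7 were higher and 31 lower, with 1 and 20 beyond a log2 fold change of 1; by median-of-ratios 10 were higher and 25 lower. CDH1, E-cadherin of the adherens junction, had 27.3, 30.1 and 29.6 TPM in HCT116 WT, against 417, 440.4 and 409 TPM in DLD-1 WT (log2 fold change -3.82, SE 0.05, adjusted p = 1.7e-11). EPCAM differed by a log2 fold change of -1.0 by TPM and -0.55 by median-of-ratios. Mesenchymal genes moved the other way, with 14 of 20 higher and 5 lower (16 and 4 by median-of-ratios) and a median of 1.73 (1.65 without the gene listed at 0 in a whole line). COL6A1 and COL6A2, chains of the same collagen, averaged 59.8 ± 2.22 and 71.2 ± 1.97 TPM in HCT116 WT, against 1.39 ± 0.244 and 0.0506 ± 0.0524 TPM in DLD-1 WT. TGFBI, a TGF-β-induced matrix protein, was the clearest exception in that list, with 0.256, 0.286 and 0.198 TPM in HCT116 WT and 127, 134 and 127 TPM in DLD-1 WT. Vimentin (VIM), the mesenchymal intermediate filament, was low in both, with 3.77, 4.65 and 4.49 TPM in HCT116 WT and 2.33, 1.22 and 1.25 TPM in DLD-1 WT.

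TGF-β and BMP signalling genes were more often lower than higher in HCT116 WT, at 10 higher and 30 lower of 42 (14 and 27 by median-of-ratios). Over all genes 27.7% were higher and 59.3% lower by TPM, and 43.8% and 42.6% by median-of-ratios. The list's median was -1.14 (-1.04 without the gene listed at 0 in a whole line), and -0.33 with length and GC trends removed. The receptor TGFBR2 had 10.6, 12 and 11.3 TPM in HCT116 WT and 98, 103 and 96.6 TPM in DLD-1 WT (log2 fold change -3.02, SE 0.06, adjusted p = 9.8e-11). SMAD7, the inhibitory SMAD induced by the pathway, averaged 3.22 ± 0.303 TPM in HCT116 WT and 55.5 ± 2.17 TPM in DLD-1 WT, and LTBP1, which tethers latent TGF-β to the matrix, 1.51 ± 0.249 TPM in HCT116 WT and 25.5 ± 1.34 TPM in DLD-1 WT. The shared signal carrier SMAD4 averaged 9.53 ± 0.729 TPM in HCT116 WT and 18.2 ± 1.29 TPM in DLD-1 WT, a log2 fold change of -0.86 that reversed to 0.27 with length and GC trends removed. GDF15, a stress-induced member of the same superfamily, had 588, 502 and 485 TPM in HCT116 WT and 324, 318 and 297 TPM in DLD-1 WT (log2 fold change 0.74, 1.19 by median-of-ratios). Among integrins and laminins 5 of 21 were higher and 14 lower, against 27.7% and 59.3% over all genes by TPM. ITGA6, the laminin receptor chain of hemidesmosomes, averaged 25.4 ± 1.33 TPM in HCT116 WT and 368 ± 11.8 TPM in DLD-1 WT.

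Most interferon response genes were higher in HCT116 WT. Of 44 tested, 39 were higher and 3 lower, with 34 and 1 beyond a log2 fold change of 1 and a median of 2.47 (2.46 without the gene listed at 0 in a whole line); by median-of-ratios 41 were higher and 2 lower. IFI27, a mitochondrial interferon-induced protein (chromosome 14, hg19 positions 94571182 to 94583032, plus strand), had 1199.9, 1185 and 1158 TPM in HCT116 WT, against 1.83, 2.02 and 0.918 TPM in DLD-1 WT (log2 fold change 8.86, SE 0.14, adjusted p = 5.2e-11). BST2 (tetherin), which holds budding viruses at the cell surface, had 591, 584 and 570.5 TPM in HCT116 WT and 0.838, 0.401 and 0.904 TPM in DLD-1 WT (log2 fold change 8.42, SE 0.10, adjusted p = 1.6e-11). IFITM1, which restricts viral entry, had 498, 545 and 489.6 TPM in HCT116 WT and 1.81, 4.02 and 2.24 TPM in DLD-1 WT. These genes were picked for large changes among genes with ranges that do not overlap. They were high in every HCT116 WT library and within a few TPM of 0 in DLD-1 WT. IFI44, a cytoplasmic interferon-induced protein, had 97.5, 103 and 100.1 TPM in HCT116 WT and was listed at 0 in all DLD-1 WT libraries. ISG15, a ubiquitin-like modifier, and MX1, an antiviral GTPase, were chosen after their values were seen, to set a member that followed the group beside 1 that did not. ISG15 had 2484, 2245 and 2100.1 TPM in HCT116 WT and 148, 136 and 157 TPM in DLD-1 WT, and MX1 had 2.3, 3.02 and 3.37 TPM in HCT116 WT and 4.02, 3.34 and 4.24 TPM in DLD-1 WT (log2 fold change -0.33, adjusted p = 0.032, and 0.02 by median-of-ratios). The MX1 ranges overlapped between the lines.

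MHC class I genes, whose products carry peptides to the cell surface, were more often higher than lower in HCT116 WT, with PSMB8 and ERAP2 among the exceptions. Of 21 tested, 13 were higher and 7 lower in HCT116 WT (14 and 5 by median-of-ratios). B2M, the invariant light chain, had 2178, 2332 and 2279 TPM in HCT116 WT, against 237, 229.9 and 215 TPM in DLD-1 WT (log2 fold change 3.31, SE 0.04, adjusted p = 1.9e-11). PSMB8, a catalytic subunit of the immunoproteasome, had 3.57, 3.73 and 3.27 TPM in HCT116 WT and 84.7, 80.8 and 86.5 TPM in DLD-1 WT (log2 fold change -4.23). Its partner subunit PSMB9, named after its values were seen, lay the opposite way with 84.7, 85.7 and 89.6 TPM in HCT116 WT and 12.3, 10.1 and 12.4 TPM in DLD-1 WT (log2 fold change 2.80). Both subunits are interferon-inducible and their genes are neighbours on 6p. HCT116 WT held more PSMB9 and DLD-1 WT more PSMB8, and the cause was not tested. ERAP2, a peptide-trimming aminopeptidase, averaged 1.66 ± 0.303 TPM in HCT116 WT and 41 ± 0.736 TPM in DLD-1 WT, and TAPBPL, a peptide editor, 1.53 ± 0.465 TPM in HCT116 WT and 17.8 ± 2.68 TPM in DLD-1 WT.

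**Figure D4:**
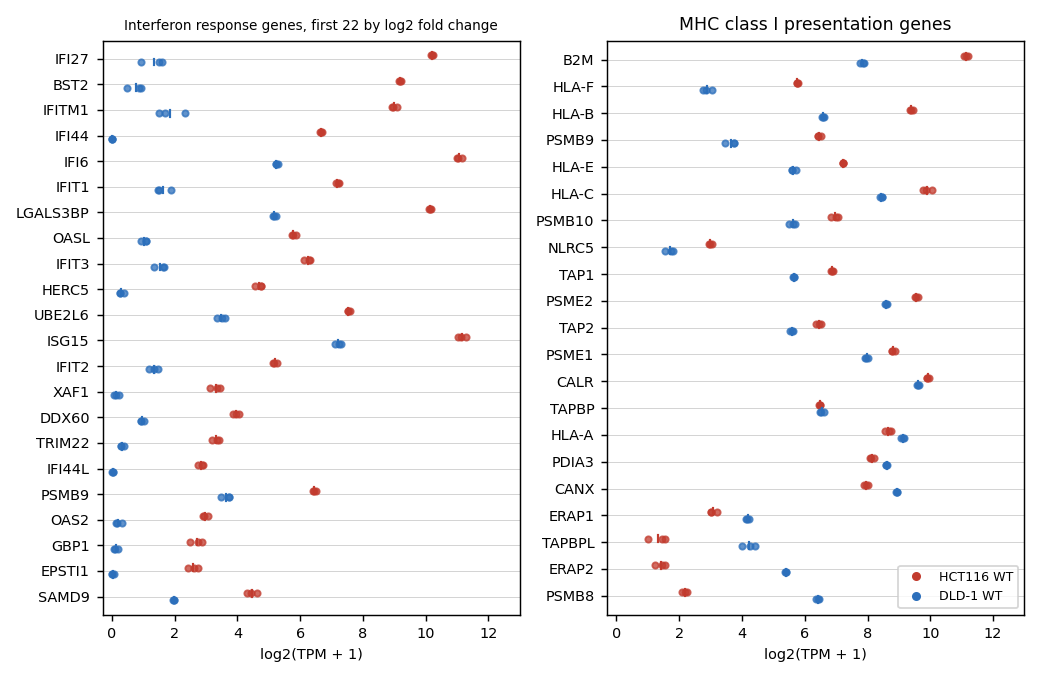
log2(TPM + 1) of each HCT116 WT (red) and DLD-1 WT (blue) library for the first 22 interferon response genes by log2 fold change and for all tested MHC class I presentation genes; points are libraries and short bars means. The interferon genes shown lie higher in HCT116 WT, led by IFI27 (8.86), and the other list runs from B2M (3.31) to PSMB8 (-4.23).

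Promoters of the interferon genes are shown because these members differ together and interferon-induced genes are known for a shared promoter element. Signalling from interferon receptors ends in the binding of STAT and IRF factors to promoters, and complexes that hold an IRF bind repeats of GAAA, which read TTTC on the other strand. The letters TTTCNNTTT, a pattern added after the gene results were known, were searched on both strands of the 300 bases around each annotated start (250 before, 50 after) in RefSeq promoters of GRCh38.p14. They stood in 28 of the 35 tested interferon genes with an entry (80.0%) and in 12 of 17 MHC class I presentation genes (70.6%), against 10.2% of all tested genes and 12.6% of all promoters. Matches did not follow the difference in every member. Named after their values were seen, UBE2L6 (log2 fold change 4.05) and PSMB9 (2.80) held no match, and PARP14 (-0.87) held 2. Matching letters are in capitals, and overlapping matches run together. In IFI27 (chr14:94110486-94110785, plus strand) matches began 108 and 94 bases before the start, in BST2 (chr19:17405581-17405880, minus strand) 129 and 123, in ISG15 (chr1:1013247-1013546, plus strand) 112 and 106, and in B2M (chr15:44711267-44711566, plus strand) 143 and 137 bases before it. MX1 (chr21:41420308-41420607, plus strand) is given beside them as a member that was not higher in HCT116 WT by TPM, and it held a match 12 bases after the start.
IFI27: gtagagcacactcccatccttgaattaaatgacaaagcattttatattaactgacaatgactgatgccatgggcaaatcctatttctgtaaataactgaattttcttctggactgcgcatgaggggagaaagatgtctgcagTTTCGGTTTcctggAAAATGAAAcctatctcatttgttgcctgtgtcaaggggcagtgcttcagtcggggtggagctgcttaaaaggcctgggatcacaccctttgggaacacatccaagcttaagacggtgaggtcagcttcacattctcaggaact
BST2: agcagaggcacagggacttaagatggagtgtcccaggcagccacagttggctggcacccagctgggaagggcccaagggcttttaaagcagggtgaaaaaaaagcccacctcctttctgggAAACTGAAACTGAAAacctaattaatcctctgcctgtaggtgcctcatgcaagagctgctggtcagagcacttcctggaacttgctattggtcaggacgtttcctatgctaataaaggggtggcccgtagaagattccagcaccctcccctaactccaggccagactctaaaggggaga
ISG15: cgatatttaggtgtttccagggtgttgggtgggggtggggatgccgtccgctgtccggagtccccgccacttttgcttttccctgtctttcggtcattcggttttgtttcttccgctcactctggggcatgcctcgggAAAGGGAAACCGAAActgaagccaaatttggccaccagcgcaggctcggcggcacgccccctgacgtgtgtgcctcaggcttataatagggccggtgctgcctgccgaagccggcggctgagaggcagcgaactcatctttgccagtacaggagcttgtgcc
B2M: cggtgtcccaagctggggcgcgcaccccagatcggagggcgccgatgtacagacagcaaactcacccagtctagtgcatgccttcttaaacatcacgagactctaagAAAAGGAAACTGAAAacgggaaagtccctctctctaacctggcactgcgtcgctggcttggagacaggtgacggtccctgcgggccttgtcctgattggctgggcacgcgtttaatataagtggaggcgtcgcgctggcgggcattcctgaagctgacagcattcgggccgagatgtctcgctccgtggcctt
MX1: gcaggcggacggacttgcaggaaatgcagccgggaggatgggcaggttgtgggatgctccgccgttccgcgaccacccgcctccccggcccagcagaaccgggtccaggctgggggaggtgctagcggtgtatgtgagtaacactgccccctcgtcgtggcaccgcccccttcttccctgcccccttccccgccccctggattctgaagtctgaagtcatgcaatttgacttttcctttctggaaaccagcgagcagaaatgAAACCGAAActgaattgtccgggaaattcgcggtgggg

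The interferon-type letters stood in 12.6% of all genes called higher, 12% of genes called lower and 10.2% of tested genes, and 6 other motifs were counted in the same groups. The CDX-type letters CNATAAA stood in 4 of 14 intestinal genes with an entry, in 8.86% of genes called higher, 9.77% of genes called lower and 8.31% of tested genes. The TCF/LEF-type letters CTTTGAT stood in 1.57% of genes called higher, 2.7% of genes called lower and 1.98% of tested genes. The AP-1-type letters TGANTCA stood in 9.65%, 7.74% and 7.24% of the same groups, TATAAA in 12.4%, 10.2% and 8.26%, the HNF4-type letters CAAAGTCCA in 0.492%, 0.525% and 0.427%, and the HNF1-type letters GTTAATNAT in 0.787%, 0.875% and 0.655%. These shares are descriptions of the windows, on both strands, and were not tested.

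A few cancer-testis genes, which are normally expressed in germ cells, were expressed in HCT116 WT. Only 4 of 35 passed the filter, and all 4 were higher, though with DLD-1 WT near 0 they could pass through HCT116 WT alone. MAGEB2 had 179, 189.7 and 188 TPM in HCT116 WT and 0, 0.473 and 0 TPM in DLD-1 WT. MAGEA3 had 100.5, 105 and 105 TPM in HCT116 WT and 0.184, 0 and 0 TPM in DLD-1 WT, with the caution that it has near-identical relatives. PRAME, a repressor of retinoic acid signalling, had 29.1, 29.6 and 29.4 TPM in HCT116 WT and was listed at 0 in DLD-1 WT. IGF2BP3, an RNA-binding protein of embryonic tissue, averaged 25 ± 2.09 TPM in HCT116 WT and 1.28 ± 0.298 TPM in DLD-1 WT. In the genes of DNA methylation, 2 of 13 were higher and 11 lower (4 and 7 by median-of-ratios). The shares over all genes by TPM were 27.7% higher and 59.3% lower. The de novo methyltransferase DNMT3A averaged 3.05 ± 0.144 TPM in HCT116 WT and 31.9 ± 2.79 TPM in DLD-1 WT, and TET2, which oxidises methylcytosine, 1.68 ± 0.228 TPM in HCT116 WT and 16.1 ± 0.585 TPM in DLD-1 WT.

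Inhibitors of the cell cycle and related stress genes included strong differences. CDKN1A, the p21 inhibitor of cyclin-dependent kinases, had 409, 393 and 401 TPM in HCT116 WT, against 25.4, 27.3 and 27.1 TPM in DLD-1 WT (log2 fold change 3.86, SE 0.04, adjusted p = 7.6e-12). PHLDA3, an inhibitor of AKT, averaged 40.5 ± 2.11 TPM in HCT116 WT and 0.647 ± 0.312 TPM in DLD-1 WT, and FDXR, a mitochondrial reductase, 123 ± 1.17 TPM in HCT116 WT and 20.2 ± 1.91 TPM in DLD-1 WT. CDKN2A, which encodes p16 and ARF, had 73.8, 61.3 and 56.7 TPM in HCT116 WT and 0.145, 0.663 and 0 TPM in DLD-1 WT (log2 fold change 5.70, SE 0.18, adjusted p = 2.6e-09). CDKN1B, the p27 inhibitor, lay the other way with 26.7 ± 0.406 TPM in HCT116 WT and 116 ± 2.95 TPM in DLD-1 WT. Genes of growth machinery showed mostly small differences whose balance shifted with the scaling. DNA replication genes were 18 higher and 15 lower of 44 by TPM and 34 and 6 by median-of-ratios. Mitosis genes changed direction, with 15 and 22 of 44, then 29 and 10. Ribosomal protein genes were 49 higher and 16 lower of 80 by TPM (75 and 2 by median-of-ratios), with a median of 0.17. Oxidative phosphorylation genes were 38 and 18 of 74 (65 and 3), with a median of 0.14. In all of these lists but the mitosis genes, more members were higher than lower under both scalings.

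DNA mismatch repair genes, whose loss gives microsatellite instability, differed in opposite directions. MSH3, which recognises larger loops, had 0.923, 1.56 and 1.22 TPM in HCT116 WT and 19.8, 20.6 and 19.5 TPM in DLD-1 WT (log2 fold change -3.24). MSH6, which recognises single mismatches, had 27.1, 30.6 and 30.6 TPM in HCT116 WT and 15, 16.4 and 14.3 TPM in DLD-1 WT (log2 fold change 0.90, SE 0.07, adjusted p = 1.4e-06). MSH6 was thus higher and MSH3 lower in HCT116 WT. MLH3, which forms an endonuclease in the same pathway, averaged 1.93 ± 0.146 TPM in HCT116 WT and 9.33 ± 0.453 TPM in DLD-1 WT.

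Of 41 tested genes of 5-FU metabolism, 16 were higher and 19 lower in HCT116 WT by TPM, and 25 and 14 by median-of-ratios. By TPM 3 and 5 were beyond a log2 fold change of 1, a smaller share than among all genes (11.0% and 28.4%). By median-of-ratios these were 10 and 4 of 41, against 17.6% and 17.0% of all genes. TYMP, which converts 5-FU towards its deoxynucleoside, had 51.6, 41.2 and 41.3 TPM in HCT116 WT, against 0.518, 0.633 and 0.399 TPM in DLD-1 WT (log2 fold change 4.91, SE 0.11, adjusted p = 2.7e-10). CDA, a cytidine deaminase, had 42, 41.3 and 51.8 TPM in HCT116 WT and 3.79, 5.38 and 5.44 TPM in DLD-1 WT (log2 fold change 2.98). TYMS, thymidylate synthase and the main target of 5-FU, had 168, 166 and 173 TPM in HCT116 WT and 179, 179 and 172 TPM in DLD-1 WT, with overlapping ranges. Its log2 fold change was -0.07 by TPM (adjusted p = 0.1) and 0.39 by median-of-ratios (adjusted p = 6.5e-06), so its direction rested on the scaling. DPYD, which degrades 5-FU, was below the filter, at 0.369, 0.252 and 0.341 TPM in HCT116 WT and listed at 0 in DLD-1 WT. NT5E, a surface nucleotidase, averaged 12.9 ± 0.637 TPM in HCT116 WT and 98.5 ± 4.04 TPM in DLD-1 WT, and the glycosylase TDG, which can excise fluorouracil from DNA, 17.3 ± 0.858 TPM in HCT116 WT and 59.2 ± 1.7 TPM in DLD-1 WT.

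Among the genes of platinum transport and repair, 11 of 38 were higher and 23 lower (16 and 20 by median-of-ratios). By TPM this was near the shares over all genes, 27.7% higher and 59.3% lower. The efflux pumps ABCC2 and ABCB1 lay in opposite directions: ABCC2 had 23.6, 24.5 and 24.6 TPM in HCT116 WT and 0.517, 0.551 and 0.73 TPM in DLD-1 WT, and ABCB1 (P-glycoprotein) had 0.769, 0.688 and 0.803 TPM in HCT116 WT and 47, 47.5 and 46.9 TPM in DLD-1 WT. GSTM3 and GSTT1, glutathione transferases, averaged 0.0185 and 0.193 TPM in HCT116 WT, against 51.9 and 50.4 TPM in DLD-1 WT. ERCC1, an excision repair nuclease subunit, had 84.7, 86.7 and 87.2 TPM in HCT116 WT and 43.5, 36 and 40.9 TPM in DLD-1 WT (log2 fold change 1.09). SLC31A1, a copper transporter that also carries platinum drugs, had 16.4, 16 and 16.3 TPM in HCT116 WT and 34.1, 36.5 and 33 TPM in DLD-1 WT (log2 fold change -1.04, -0.61 by median-of-ratios). Detoxifying oxidoreductases split between relatives: ALDH1A3, a retinaldehyde dehydrogenase, averaged 539 ± 24.3 TPM in HCT116 WT and 5.59 ± 0.186 TPM in DLD-1 WT, whereas ALDH3A1 averaged 0.621 ± 0.254 TPM in HCT116 WT and 211 ± 3.51 TPM in DLD-1 WT. The carbonyl reductase CBR1 averaged 0.03 ± 0.052 TPM in HCT116 WT and 58.7 ± 2.64 TPM in DLD-1 WT, and UGT1A6, a glucuronosyltransferase that shares exons with its locus neighbours, 0.116 ± 0.0765 TPM in HCT116 WT and 75.7 ± 2.22 TPM in DLD-1 WT.

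The genes that the study used as CRC stem cell markers were mostly lower in HCT116 WT but did not all move together. Of 13 markers 11 passed the filter, and 2 were higher and 9 lower in HCT116 WT. By TPM 27.7% of all genes were higher and 59.3% lower. Of 10 tested, 2 were higher and 8 lower by median-of-ratios, and 3 and 6 with length and GC trends removed. SOX2 and NANOG, both pluripotency factors, were near 0 in both lines. PROM1 (CD133) had 12.9, 12.9 and 14.7 TPM in HCT116 WT and 2.12, 1.93 and 1.71 TPM in DLD-1 WT (log2 fold change 2.31), and CD44, a hyaluronan receptor, had 238, 252 and 246 TPM in HCT116 WT and 137, 146 and 139 TPM in DLD-1 WT (log2 fold change 0.80). CD24, a surface glycoprotein, had 9.25, 11 and 10.2 TPM in HCT116 WT and 224, 244 and 231 TPM in DLD-1 WT (log2 fold change -4.39). DPP4 (CD26), a peptidase, had 1.51, 1.04 and 1.29 TPM in HCT116 WT and 48.7, 47.9 and 44 TPM in DLD-1 WT (log2 fold change -4.40). ALDH1A1, an aldehyde dehydrogenase of stem cells, averaged 0.0491 TPM in HCT116 WT and 7.96 TPM in DLD-1 WT, and ITGAV, an integrin chain, 6.31 TPM in HCT116 WT and 47.4 TPM in DLD-1 WT. ALCAM averaged 27.5 ± 1.88 TPM in HCT116 WT and 64.9 ± 3.66 TPM in DLD-1 WT (log2 fold change -1.21, -0.77 by median-of-ratios), and ITGB1 147 ± 7.12 TPM in HCT116 WT and 294 ± 9.94 TPM in DLD-1 WT (log2 fold change -0.99, which reversed to 0.13 with length and GC trends removed). POU5F1, the third pluripotency factor of the set, stayed below 2 TPM in every library.

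Growth factor, protease and metabolic genes held strong single differences in both directions. Their counts stand against 27.7% higher and 59.3% lower over all genes by TPM, and 43.8% and 42.6% by median-of-ratios. Proteases and inhibitors, and NF-κB and chemokine genes, had a larger share of higher members by TPM. PLAU, the urokinase plasminogen activator, averaged 159 ± 2.28 TPM in HCT116 WT and 4.17 ± 0.462 TPM in DLD-1 WT, while the metalloproteinase inhibitors TIMP3 and TIMP4 averaged 0.00676 and 0.121 TPM in HCT116 WT, against 13.5 and 21 TPM in DLD-1 WT. Proteases and inhibitors were 18 higher and 11 lower of 31. DUSP4, an ERK phosphatase induced by ERK, averaged 47.6 ± 0.757 TPM in HCT116 WT and 1.99 ± 0.426 TPM in DLD-1 WT, and FOSL1, an AP-1 subunit, 249 ± 7.79 TPM in HCT116 WT and 40.8 ± 4.53 TPM in DLD-1 WT. The whole list of EGF receptor and MAPK genes had 8 higher and 22 lower of 32 (12 and 18 of 33 by median-of-ratios). The growth factor binding protein IGFBP6 averaged 226 ± 11.1 TPM in HCT116 WT and 4.95 ± 0.726 TPM in DLD-1 WT, and IGFBP4 0.172 ± 0.125 TPM in HCT116 WT and 24.2 ± 0.626 TPM in DLD-1 WT. In NF-κB and chemokine genes (11 higher and 8 lower of 22), TNFAIP2 averaged 39.4 ± 1.01 TPM in HCT116 WT and 0.386 ± 0.0411 TPM in DLD-1 WT, and the adhesion molecule ICAM1 0.352 ± 0.158 TPM in HCT116 WT and 20.2 ± 0.969 TPM in DLD-1 WT. Cholesterol and fatty acid genes were 9 higher and 23 lower of 34 by TPM and 13 and 19 by median-of-ratios, with HMGCS1, an early enzyme of cholesterol synthesis, at 22.9 ± 0.98 TPM in HCT116 WT and 123 ± 3.03 TPM in DLD-1 WT. BNIP3, a hypoxia-induced mitophagy receptor, averaged 39.4 ± 0.71 TPM in HCT116 WT and 0.781 ± 0.151 TPM in DLD-1 WT, within a hypoxia and glycolysis list of 13 higher and 16 lower of 34.

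Smaller structural and signalling families held members in both directions. Across all genes 27.7% were higher and 59.3% lower by TPM, and 43.8% and 42.6% by median-of-ratios. Keratins and S100 and annexin genes had a larger share of higher members by TPM. Keratins, the intermediate filaments of epithelia, had 7 higher and 5 lower of 13, with KRT23 at 23.5 ± 0.39 TPM in HCT116 WT and 0.689 ± 0.735 TPM in DLD-1 WT and KRT15 at 35.2 ± 3.74 TPM in HCT116 WT and 1.37 ± 0.274 TPM in DLD-1 WT. S100 and annexin genes, which encode calcium-binding proteins, had 11 higher and 7 lower of 20, and S100A2 averaged 163 ± 4.7 TPM in HCT116 WT and 7.11 ± 1.5 TPM in DLD-1 WT. The insulin-like growth factor axis had 5 higher and 9 lower of 14, and the G1 cyclins and inhibitors 8 and 12 of 21 (11 and 8 by median-of-ratios). RBL2, a pocket protein that restrains the cell cycle, averaged 7.89 ± 0.512 TPM in HCT116 WT and 32.9 ± 2.15 TPM in DLD-1 WT. ALDOC, a glycolytic aldolase, averaged 55 ± 3.04 TPM in HCT116 WT and 1.82 ± 0.687 TPM in DLD-1 WT, while CA12, a hypoxia-induced carbonic anhydrase, averaged 1.39 ± 0.0962 TPM in HCT116 WT and 15.2 ± 2.03 TPM in DLD-1 WT.

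**Figure D5:**
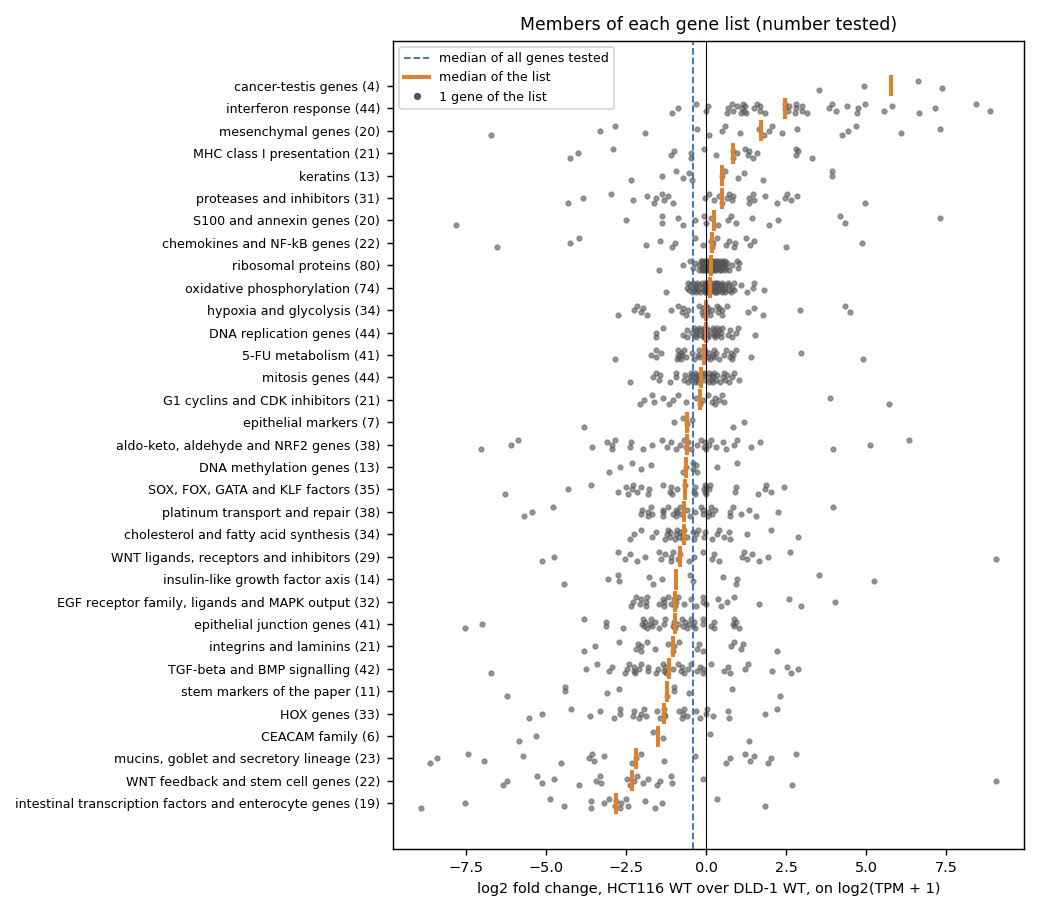
log2 fold change, HCT116 WT over DLD-1 WT, of each tested gene (points) in each list shown, of those with 4 or more tested genes, with the list's median (orange bar) and the median of all genes (dashed line, -0.40). The interferon response (median 2.47) lies to the right and the intestinal genes (median -2.82) to the left.

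The difference between the lines also varied with the position of genes. TPM differences followed base composition and length: the medians over 4 equal groups of genes ranked by transcript GC content were -0.79, -0.59, -0.31 and 0.08 from the lowest to the highest GC, and the group of longest transcripts had a median of -0.74 against -0.33 in the shortest. Trends with length and GC were then removed within each library, a step chosen after seeing the data. The medians of genes on 8q (0.39, 295 genes), 17q (0.32, 580 genes) and 10q (0.30, 413 genes) were the highest of 40 arms, and those on 11p (-0.25), 2p (-0.22) and 3p (-0.20) the lowest. In windows of 20 Mb (hg19), chromosome 10 reached 0.57 between 100 and 120 Mb and 0.43 beyond, against 0.26 between 80 and 100 Mb, and chromosome 8 reached 0.58 between 120 and 140 Mb. On 16q the window from 80 Mb had a median of 0.47, and on chromosome 17 the window from 60 Mb had 0.49. The lowest windows were chromosome 3 from 160 Mb (-0.61) and chromosome 11 from its start (-0.53). The whole of 16q had a median of 0.16, below 20p (0.25) and 20q (0.18). Of the 4 most different genes of the oxidative phosphorylation list, which encode respiratory chain subunits, NDUFS5 (log2 fold change 1.81) lies on 1p, NDUFB9 (1.49) and UQCRB (1.48) on 8q, and NDUFB10 (1.28) on 16p. HCT116 is known to carry extra copies of parts of 8q, 10q, 16q and 17q. DNA copy number was not measured here and its part in these medians was not tested.

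SW480 WT, from the same run of library names as HCT116 WT, was set beside both lines for the genes called with ranges that did not overlap. Of 3883 such genes lower in HCT116 WT than in DLD-1 WT, SW480 WT was nearer to HCT116 WT for 72.1% on log2(TPM + 1), and of 1498 higher ones for 43.2%, given as a description with no test. These shares were taken by TPM alone and may depend on the scaling. The summed FPKM, by which TPM divides, were 680346 to 804635 in SW480 WT, 701434 to 720744 in HCT116 WT and 499557 to 515400 in DLD-1 WT. AXIN2 averaged 284 TPM and LEF1 38.4 TPM in SW480 WT, near or above DLD-1 WT. LGR5 averaged 0.0094 TPM, TSPAN8 0.266 TPM and CDH17 0.0103 TPM in SW480 WT, near 0 as in HCT116 WT. The interferon genes IFI27 (75.9 TPM) and BST2 (11.7 TPM) lay between the lines in SW480 WT, and IFI44 averaged 0.0255 TPM. CDKN2A averaged 59.1 TPM and S100A4 2843 TPM in SW480 WT, close to HCT116 WT, while MSH6 (72.1 TPM) lay above both lines.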

How the data were processed

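mRNA of untreated HCT116 and DLD-1 cells was measured by stranded poly(A) RNA-seq. The authors trimmed reads, aligned them to hg19 with TopHat2 2.1.1 and, per the labels, deposited FPKM made with Cuffdiff 2.2.1, whereas the methods name Cufflinks. The study's methods describe HCT116 and SW480, so DLD-1 is known here from the labels. FPKM correct for depth and transcript length, and whether counting used strand is not given in the sources used here. The absolute depth is unknown, so no counting interval is given.

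FPKM were divided by their library sum (TPM), filtered (1 TPM reached in 3 or more of 6 libraries) and compared as log2(TPM + 1) with limma 3.58.1 (R 4.3.3, trended prior, Benjamini-Hochberg over 13706 genes), called at an adjusted p under 0.05. The study's rank test was not used, since 3 against 3 libraries cannot go below an exact two-sided p of 0.1. The fit was tested on simulated data. Tables were made in Python 3.11.15. Of 26255 gene symbols, 23773 matched the annotation (GENCODE lifted to GRCh37), 1351 through older symbols.

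Members and 40 gene lists were chosen with earlier results of these data known. Genes named are the 15 with the largest fold change each way among genes called with ranges that do not overlap and a mean TPM of 10 or more in the higher line, key genes and stem cell markers chosen by name, and up to 4 per list with the largest change; others are marked. Alternatives changed the scaling, pseudocount, filter, prior, libraries and fold limit, removed trends with length and GC, or left out each library in turn. A gene at 0 in a whole line gets library values and no fold change. Some genes and lists are not reported here.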

Additional observations from a re-analysis of the deposited data

How the results depend on the processing

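The balance of higher and lower calls changed with the scaling. Against 1504 higher and 3891 lower genes in HCT116 WT, median-of-ratios gave 2402 and 2324, removal of the trend with transcript length 2276 and 2058, a mean TPM of at least 5 gave 859 higher, and a log2 fold change beyond 2 gave 628 and 1056. Lower genes numbered 1987 with FPKM as deposited, 2268 after quantile normalization and 1990 with length and GC trends removed (chosen after seeing the data). Leaving out each library in turn gave 1504 to 1514 higher and 3796 to 3959 lower genes. Among named genes the reversed log2 fold changes were those of CTNNB1 (0.15 with length and 0.32 with length and GC trends removed), ITGB1 (0.13) and SMAD4 (0.27) with length and GC trends removed, and TYMS (0.39 by median-of-ratios, 0.41 with FPKM as deposited, 0.19 with length and 0.17 with length and GC trends removed). Of genes named after their values were seen, MX1 (0.02) and KLK10 (0.09) reversed by median-of-ratios. The cause was not tested. All 163 tested named genes stayed on their side of the threshold without each library, with a pseudocount of 0.1, without a filter, without the trended prior and with all 27 libraries in the fit.

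Replicate numbers did not pair the samples: deviations of same-numbered libraries correlated at 0.06, -0.02 and -0.12. With the number as a block, 1507 genes were higher and 3893 lower, and no call of a named gene changed. Without read counts, low values cannot be given a counting error, and a gene listed at 0 is not shown to be absent.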

Other observations

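A few genes of the β-globin region on 11p, chosen after their values were seen, were expressed in HCT116 WT. This stretch of 11p holds the embryonic and fetal globin genes among olfactory receptor genes, which are normally silent outside red cell precursors and the nose. Of 38 genes of the region in the files, 7 passed the filter and all 7 were higher in HCT116 WT by limma at an adjusted p under 0.05. A gene could pass the filter through HCT116 WT alone, so this count is a description. The olfactory receptor gene OR51B5 had 79.1, 87.9 and 82.9 TPM in HCT116 WT, against 0.111, 0 and 0 TPM in DLD-1 WT (log2 fold change 6.35, SE 0.08, adjusted p = 1.6e-11). OR51B4 had 16.2, 15.1 and 19.5 TPM and HBG2, a fetal globin, 6.94, 8.18 and 3.7 TPM in HCT116 WT, and both were listed at 0 in DLD-1 WT. SW480 WT averaged 1.08 TPM of OR51B5 and 1.27 TPM of HBE1. The annotated spans of HBE1 (hg19 positions 5289575 to 5526882) and HBG2 run across several of the olfactory receptor genes, so reads of long transcripts could be shared among them and these are not independent counts.

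The kallikrein genes on 19q, secreted serine proteases that lie side by side, split by position, as seen after the values were known. KLK5, KLK6, KLK7 and KLK8, which are neighbours, were higher in HCT116 WT, and 5 of the 9 tested members were lower. KLK7 had 58.2, 60.6 and 60.1 TPM in HCT116 WT and 0.899, 0.682 and 0.966 TPM in DLD-1 WT (log2 fold change 5.04), and KLK6 had 144, 143 and 144 TPM in HCT116 WT and 20.7, 20.8 and 17.7 TPM in DLD-1 WT (2.81). KLK11 had 0.443, 0.423 and 0.189 TPM in HCT116 WT and 20.3, 19.9 and 22.1 TPM in DLD-1 WT (-4.01), and KLK1 had 1.1, 1.36 and 2.19 TPM in HCT116 WT and 37.8, 35.8 and 34.3 TPM in DLD-1 WT (-3.88). KLK10, with 62 TPM in HCT116 WT and 79.4 TPM in DLD-1 WT on average, had a log2 fold change of -0.35 by TPM and 0.09 by median-of-ratios.

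Zinc finger genes with a ZNF symbol, mostly transcription factors that repress, had 39 higher and 269 lower of 346 tested in HCT116 WT. Their median log2 fold change was -0.87 against -0.40 over all genes by TPM, and -0.50 by median-of-ratios (71 higher and 221 lower). With trends of length and GC content removed it was -0.35.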
